A study of Mus musculus with 21 samples.

Results

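The genes described here were Hmgcs1, Idi1, Fdps, Fdft1, Sqle, Lss and Cyp51, which encode enzymes of cholesterol synthesis and were picked by name from the 23420 gene symbols of the count table. All 7 were present. RNA-Seq of inflammatory monocytes (IMs) had been used to compare tumors with bone marrow (BM) in mouse models of lung squamous cell carcinoma (LUSC), and 21 libraries in 5 groups were deposited. BM IMs came from naive, healthy FVB mice (n = 3) and from naive, healthy DBA2 mice (n = 3). Tumor IMs (TIMs) of the LN2E1 model (KAL-LN2-E1, a metastatic line derived from KAL LUSC cells) came from primary lung tumors (n = 5) and from lymph node metastases (n = 5) of FVB mice whose lungs had been injected with 500000 cells. TIMs of the LN4K1 model, derived from KLN-205 cells, came from the lungs of DBA2 mice with lung tumors (n = 5) after intravenous injection of 300000 cells, so that strain, line, route and tissue cannot be told apart between the models. Mice of both sexes were adult in the study's methods, and the labels give neither age nor sex for a library. The IMs were enriched with a monocyte kit and sorted as CD45+ SiglecF- CD11b+ Ly6G- Ly6C-high cells, and whether the libraries of a group came from different mice is not stated. The study's methods call them technical replicates, and the p values below then measure only the spread between these libraries.

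Cholesterol is built from acetyl-CoA in the cytosol and endoplasmic reticulum. HMG-CoA synthase (Hmgcs1) makes HMG-CoA, and the mevalonate formed from it is turned into 5-carbon isoprenoids that isopentenyl-diphosphate isomerase (Idi1) interconverts. Farnesyl diphosphate synthase (Fdps) joins these into farnesyl diphosphate, which also feeds protein prenylation, dolichol and ubiquinone. Squalene synthase (Fdft1) commits farnesyl diphosphate to sterols, squalene epoxidase (Sqle) oxidises squalene, lanosterol synthase (Lss) closes the rings, and lanosterol 14-alpha-demethylase (Cyp51) takes the first step from lanosterol towards cholesterol. Transcription of the whole route is driven by SREBP-2 (Srebf2) when sterols in the endoplasmic reticulum are low, while LXR receptors switch on cholesterol export when sterols are plentiful.

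Total counts per library lay between 80772922 and 101043568, and the 7 genes held between 192 and 8977 counts in every library, so that all 7 passed the filter on low counts in every comparison. Levels are given as CPM (read counts scaled to a common library size with TMM factors over the 21 libraries), and fold changes as log2 values with a standard error from edgeR's quasi-likelihood test. Adjusted p is by Benjamini-Hochberg over all genes tested, and a gene is said to have risen or fallen at an adjusted p under 0.05. It is called a DEG where that p was under 0.0001 with an unshrunken fold change beyond 1 on the log2 scale in either direction. Lymph node TIM replicate 1 and LN4K1 lung TIM replicate 3 were the libraries least like the rest of their groups, with mean Spearman correlations of 0.939 and 0.940 against at least 0.963 for all others. They also had the fewest genes with at least 10 counts, 11047 and 12015. Values are of bulk RNA, in which fewer cells of a type and less RNA per cell cannot be told apart.

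Hmgcs1, Sqle and Cyp51 were raised in all 3 tumor tissues relative to the BM IMs of the strain, with no overlap between tumor and marrow libraries in any. The share of all genes that did so in all 3 is not given here, only the shares for each comparison below. Lss rose in both LN2E1 tissues and was not called in LN4K1 lungs. Idi1 was called higher in lymph node metastases, Fdps was called lower in primary tumors, and Fdft1 did not pass the test in any of the 3. Cyp51 and Sqle had the largest fold changes of the 7 in LN2E1 tumors, with edgeR folds of 2.42 to 3.58 over FVB BM IMs. The plot of CPM by library shows the 7 genes in the 5 groups.

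**Figure D1:**
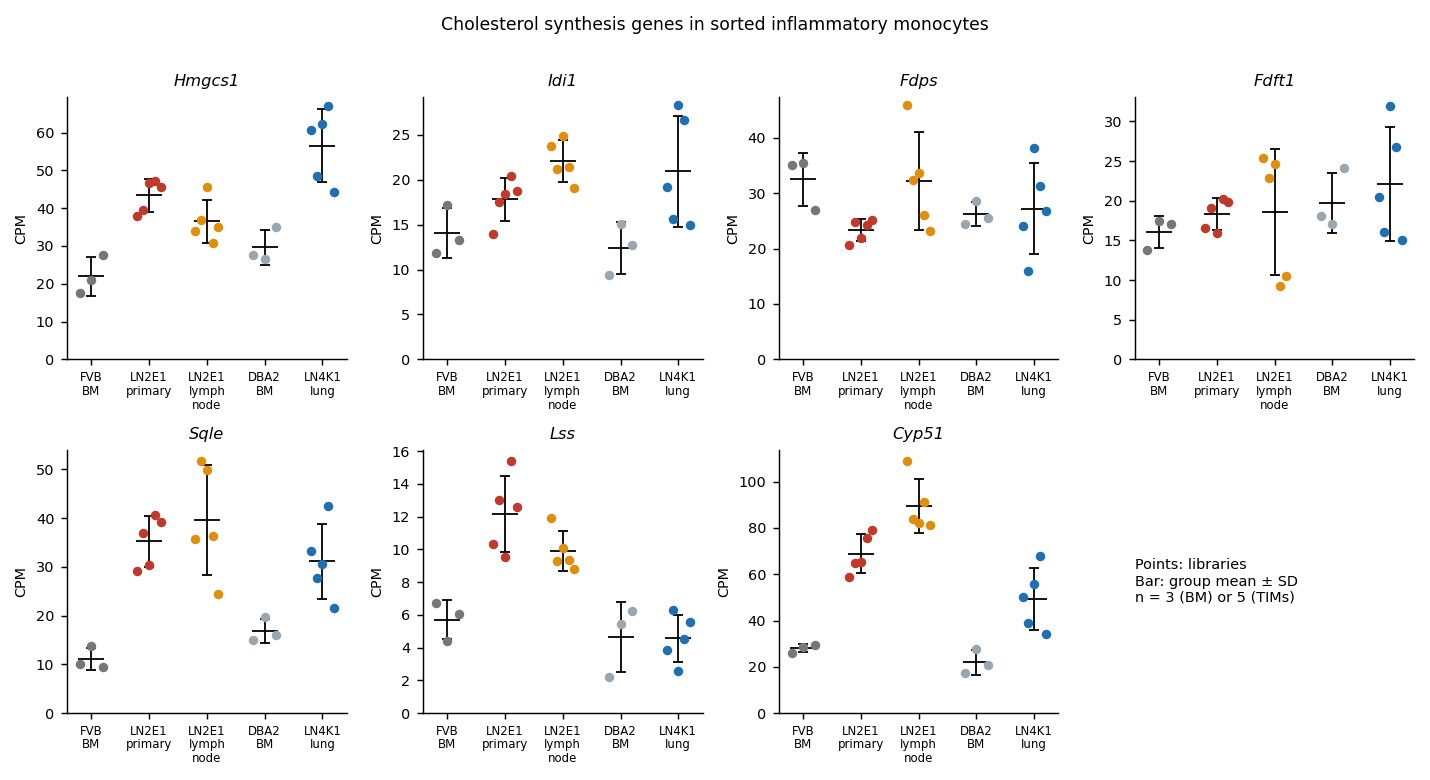
CPM of each of the 7 genes (vertical axis, linear, from 0) in every library of the 5 groups (horizontal axis), with points for libraries and bars for the group mean ± SD (n = 3 for BM IMs, n = 5 for TIMs). Cyp51 spans 26.1 to 29.3 CPM in the FVB marrow and 58.8 to 109 CPM in LN2E1 TIMs, whereas Fdft1 overlaps between TIMs and BM IMs in both strains.

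In primary tumors 4 of 7 rose and 1 fell, where 61.9% of 14569 genes tested were called (33.3% higher, 28.6% lower). In lymph node metastases 5 of 7 rose, where 37.4% of 13273 genes were called (20.2% higher, 17.2% lower). In LN4K1 lungs 3 of 7 rose, where 24.9% of 13624 genes were called (13.9% higher, 11% lower). At the stricter thresholds 2 of 7 were DEGs in primary tumors (background 12.9%), 1 in lymph node metastases (5.71%) and 0 in LN4K1 lungs (2.97%), where 4 of 7 had an unadjusted p under 0.05 and DESeq2 called 4 of 7 at an adjusted p under 0.05. The groups did not overlap for 5, 5 and 3 members, where this was so for 58.1%, 42.9% and 34.8% of genes. The median log2 fold changes of the 7 were 0.95, 0.73 and 0.68, beside medians over all genes tested of 0.08, -0.04 and 0.03. Primary tumor and lymph node values share the FVB BM IM libraries. The DEG counts rested on single libraries: in primary tumors there were 0 without FVB BM IM replicate 1 and 1 without FVB BM IM replicate 2 or primary tumor TIM replicate 2, 4 or 5, and in lymph node metastases there were 0 without any 1 of the 3 FVB BM IM libraries or lymph node TIM replicate 2 or 4. In lymph node metastases the count of members called went down to 2 without FVB BM IM replicate 1 and to 3 without FVB BM IM replicate 2, FVB BM IM replicate 3 or lymph node TIM replicate 3, and in LN4K1 lungs to 1 without DBA2 BM IM replicate 1 or 3. Without lymph node TIM replicate 1, 5 of 7 were again called in lymph node metastases, and without LN4K1 lung TIM replicate 3, 3 of 7 in LN4K1 lungs.

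Hmgcs1, at the entrance of the route, spans chr13:119690379-119708260 (GRCm38, forward strand) with 11 exon blocks. In FVB BM IMs it had 17.5, 21 and 27.6 CPM, in primary tumor TIMs 37.9, 39.6, 46.7, 47.1 and 45.5 CPM, and in lymph node TIMs 34.0, 37.0, 45.7, 30.8 and 35.1 CPM. In the DBA2 strain it had 27.5, 26.5 and 34.9 CPM in BM IMs against 60.6, 48.4, 62.3, 67.0 and 44.4 CPM in LN4K1 lung TIMs. Every TIM library lay above every BM IM library of its strain, and LN4K1 lung TIMs had the highest mean, 56.6 ± 9.66 CPM (SD, n = 5). Relative to BM IMs, Hmgcs1 rose by 0.95 ± 0.17 (log2 ± SE, adjusted p = 0.000785) in primary tumors, by 0.73 ± 0.21 (adjusted p = 0.02) in lymph node metastases and by 0.86 ± 0.18 (adjusted p = 0.00724) in LN4K1 lungs. The lymph node call was lost without FVB BM IM replicate 1 (0.58, adjusted p = 0.0966) or replicate 2 (0.68, adjusted p = 0.0857).

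Idi1 (chr13:8885501-8892451, forward strand) and Fdps (chr3:89093588-89101959, reverse strand) handle the isoprenoids between mevalonate and squalene. For Idi1, FVB BM IMs had 11.8, 17.2 and 13.3 CPM and lymph node TIMs 23.8, 21.2, 24.9, 21.4 and 19.1 CPM, so that these groups did not overlap. Its lymph node fold change was 0.65 ± 0.20 (adjusted p = 0.029), and it was not called without FVB BM IM replicate 1, FVB BM IM replicate 3 or lymph node TIM replicate 3 (adjusted p = 0.134, 0.0825 and 0.0529). In primary tumors, with 14 to 20.4 CPM, the value was 0.32 ± 0.17 (adjusted p = 0.128), which became a call only without FVB BM IM replicate 2 (0.50, adjusted p = 0.0407). In LN4K1 lungs, with 15.0 to 28.3 CPM against 9.35 to 15.1 CPM in DBA2 BM IMs, it was 0.68 ± 0.27 (adjusted p = 0.0965), and this missed the threshold in edgeR but passed in DESeq2 (0.70, adjusted p = 0.047).

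Fdps was the member that went down. It had 35.1, 35.4 and 27.0 CPM in FVB BM IMs against 20.6, 24.7, 21.9, 24.3 and 25.1 CPM in primary tumor TIMs, with every TIM library lower. The fall was by 0.50 ± 0.12 on the log2 scale (adjusted p = 0.00532), and it passed in all 8 fits that left out a library, with adjusted p values from 0.0015 to 0.0441. With all 5 groups in 1 fit it was by 0.48 and was not called (adjusted p = 0.0821). Lymph node TIMs spread widely, at 45.9, 32.4, 33.6, 26 and 23.2 CPM around the BM IM values, and the log2 fold change of -0.01 had a 95% interval from -0.46 to 0.44. In the DBA2 strain, LN4K1 lung TIMs had 24, 15.9, 38.2, 31.2 and 26.8 CPM against 24.5, 28.6 and 25.5 CPM, a value of -0.02 with an interval from -0.49 to 0.45. Near-identical processed pseudogenes exist for both genes in the annotation (4 for Fdps, at 96.1% to 98.9% identity over 605 to 1066 bases, and 2 for Idi1, 1 of them at 100% over 684 bases), and Gm43738, annotated as protein-coding, shares 1124 exon bases with Fdps on its strand. None of these is in the count table, and how reads shared with them were placed is not given in the sources used here.

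Fdft1 (chr14:63145150-63179578, reverse strand) and Sqle (chr15:59315077-59331192, forward strand) catalyse successive steps on squalene, and their values parted. Sqle had 10.0, 13.7 and 9.51 CPM in FVB BM IMs, 29.1, 36.9, 30.3, 40.6 and 39.3 CPM in primary tumor TIMs, and 35.7, 51.8, 49.9, 36.4 and 24.4 CPM in lymph node TIMs. In the DBA2 strain its BM IMs had 15.0, 19.7 and 16.0 CPM and LN4K1 lung TIMs 33.3, 27.7, 30.6, 42.6 and 21.6 CPM. No TIM library came down to the BM IM range of its strain, although LN4K1 lung TIM replicate 5 was close. The rise was by 1.65 ± 0.17 (adjusted p = 3.45e-05, a DEG) in primary tumors, by 1.84 ± 0.28 (adjusted p = 0.000669) in lymph node metastases and by 0.81 ± 0.22 (adjusted p = 0.0276) in LN4K1 lungs. In LN4K1 lungs the call was lost when DBA2 BM IM replicate 1, 2 or 3 was left out, or LN4K1 lung TIM replicate 1, at adjusted p values from 0.0505 to 0.107.

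Fdft1, 1 step before Sqle, had 13.8, 17.4 and 17.1 CPM in the FVB marrow and overlapped it with 15.9 to 20.2 CPM in primary tumors, a log2 fold change of 0.16 ± 0.14 (adjusted p = 0.332). Lymph node TIMs fell into a high and a low set, with 25.4, 22.9 and 24.7 CPM in replicates 1 to 3 and 9.30 and 10.5 CPM in replicates 4 and 5, so that the SD was 43.1% of the mean. In LN4K1 lungs, 15.1 to 32 CPM stood against 17.1 to 24.1 CPM in DBA2 BM IMs (0.08 ± 0.27, adjusted p = 0.856). Fdft1 shares 774 exon bases with Ctsb (cathepsin B) on the opposite strand, and the libraries carried no strand. A processed pseudogene, Gm6781, matches Fdft1 at 97.4% over 1249 bases. Ctsb reached 349924 counts in a library against 2587 for Fdft1, and its part in the counts of Fdft1 was not tested.

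Lss (chr10:76531588-76557138, forward strand) was the least abundant of the 7. It had 6.71, 4.39 and 6.03 CPM in FVB BM IMs, 10.3, 13.0, 9.54, 15.4 and 12.6 CPM in primary tumor TIMs and 11.9, 9.29, 10.1, 9.37 and 8.78 CPM in lymph node TIMs. LN4K1 lung TIMs had 3.86, 6.27, 2.59, 4.52 and 5.59 CPM, against 2.23, 5.47 and 6.26 CPM in DBA2 BM IMs. The LN2E1 libraries thus all lay above FVB BM IMs, while LN4K1 lung TIMs and DBA2 BM IMs overlapped almost fully. Its fold change was 1.07 ± 0.21 (adjusted p = 0.00179) in primary tumors, 0.79 ± 0.28 (adjusted p = 0.0485) in lymph node metastases and -0.10 ± 0.39 (adjusted p = 0.881) in LN4K1 lungs. The lymph node call was kept only without lymph node TIM replicate 1 among the 8 fits that left out a library (0.63 to 0.92, adjusted p from 0.0414 to 0.206) and was lost without the filter on low counts (adjusted p = 0.083).

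Cyp51 (chr5:4081145-4104746, reverse strand) had the lowest adjusted p of the 7 in both LN2E1 tissues. Its values were 26.1, 28.7 and 29.3 CPM in FVB BM IMs, 58.8, 64.8, 65.5, 75.7 and 79.2 CPM in primary tumor TIMs and 109, 84.1, 82.3, 91.4 and 81.2 CPM in lymph node TIMs. DBA2 BM IMs had 17.3, 27.7 and 20.6 CPM and LN4K1 lung TIMs 50.3, 38.9, 56.0, 67.7 and 34.0 CPM. FVB BM IMs, primary tumor TIMs and lymph node TIMs did not overlap one another, and all LN4K1 lung libraries lay above the DBA2 BM IMs. Cyp51 rose by 1.27 ± 0.12 (adjusted p = 1.84e-05, a DEG) in primary tumors, by 1.68 ± 0.15 (adjusted p = 2.23e-05, a DEG) in lymph node metastases and by 1.10 ± 0.26 (adjusted p = 0.0126) in LN4K1 lungs. The LN4K1 call was lost without DBA2 BM IM replicate 1 (0.96, adjusted p = 0.0607) or replicate 3 (1.06, adjusted p = 0.0605), and the LN2E1 calls at an adjusted p under 0.05 held in all 8 fits each. Exons on the opposite strand overlap those of Cyp51 (Akap9), Hmgcs1 (Gm48342), Idi1 (Gm48574) and Lss (4930483K19Rik), and reads from such pairs cannot be told apart without strand, whereas Sqle has no such overlap in the annotation.

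The promoters of Hmgcs1 and Cyp51 are shown because both genes rose in all 3 tumor tissues and are classical targets of SREBP-2. The RefSeq table for GRCm38.p6 matched 4 of the 7 genes (Hmgcs1, Idi1, Lss and Cyp51), and 250 bases before each RefSeq start were searched on both strands. Capitals mark TCACNCCAC (the core of a sterol regulatory element), TCACNTCA (a related form), CCAAT and GGGCGG or their reverse complements, letters that were chosen after these windows had been seen. The Hmgcs1 window is chr13:119690101-119690350 (forward strand), and the Cyp51 stretch is chr5:4104747-4104947 (reverse strand), which ends where the annotated first exon begins.
Hmgcs1: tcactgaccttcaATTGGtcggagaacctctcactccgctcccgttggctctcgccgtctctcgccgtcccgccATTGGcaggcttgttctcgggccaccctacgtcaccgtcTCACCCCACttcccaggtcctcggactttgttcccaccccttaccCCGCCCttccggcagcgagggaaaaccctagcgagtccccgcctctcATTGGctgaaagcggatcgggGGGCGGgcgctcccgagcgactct
Cyp51: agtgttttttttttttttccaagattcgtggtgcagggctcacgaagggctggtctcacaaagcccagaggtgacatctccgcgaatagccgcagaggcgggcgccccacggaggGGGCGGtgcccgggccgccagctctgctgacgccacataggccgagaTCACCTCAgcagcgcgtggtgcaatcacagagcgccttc

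In Hmgcs1 the letters TCACNCCAC stood 137 to 129 bases before the start, and they occur in 1.05% of 32851 mouse promoter windows of the same length. In Cyp51 the letters TCACNTCA stood 88 to 81 bases before the start and occur in 2.82% of windows. CCAAT and GGGCGG, present in 33.8% and 32.7% of windows, were found in all 4 windows, CCAAT 29 to 25 bases before the Cyp51 start, inside the exon and not printed. In Idi1 only the first 145 bases of the window precede the annotated gene. Its matches (69 to 64, 45 to 41 and 14 to 10 bases before the RefSeq start) all lay past the annotated start. TCACNCCAC and TCACNTCA were not among the letters of the Idi1 and Lss windows. A match describes letters and not binding.

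Levels can be compared between the genes only per length, and CPM per kb of exon is used for this. In FVB BM IMs Fdps was highest at 22.4 ± 3.26 CPM per kb (SD, n = 3), followed by Cyp51 at 7.13 ± 0.42, Hmgcs1 at 6.33 ± 1.47, Idi1 at 4.66 ± 0.917, Fdft1 at 4.35 ± 0.536, Sqle at 4.02 ± 0.84 and Lss at 1.22 ± 0.255. From Cyp51 to Hmgcs1 and from Idi1 to Sqle the means lay within the spread of their libraries. In primary tumor TIMs Cyp51 led with 17.5 ± 2.14 CPM per kb (n = 5), with Fdps at 16.1 ± 1.36, Sqle at 12.8 ± 1.91 and Hmgcs1 at 12.5 ± 1.23 behind it, and the first pair and the second pair each lay within their spread. Lymph node TIMs had the same order, with Cyp51 at 22.8 ± 2.91 and Fdps at 22.2 ± 6.06. Fdps remained first in DBA2 BM IMs (18 ± 1.46) and LN4K1 lung TIMs (18.8 ± 5.71), and Lss was last in all 5 groups.

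Levels within the route were also set against each other as 3 ratios of counts in the same library, which were chosen after the values were seen and are given without a test. The ratio of Cyp51 to Fdps counts was 0.745 to 1.08 in FVB BM IMs and 0.705 to 0.97 in DBA2 BM IMs, against 2.62 to 3.15 in primary tumor TIMs, 2.37 to 3.52 in lymph node TIMs and 1.27 to 2.44 in LN4K1 lung TIMs. All 15 TIM libraries thus lay above all 6 BM IM libraries. For Sqle to Fdft1 the ratio was 0.555 to 0.792 and 0.666 to 1.15 in BM IMs of the 2 strains, against 1.75 to 2.01, 1.4 to 3.91 and 0.956 to 1.72 in TIMs, with an overlap in the DBA2 strain only. For Hmgcs1 to Fdps it was 0.499 to 1.02 in FVB BM IMs, against 1.6 to 2.13 in primary tumor TIMs and 0.74 to 1.51 in lymph node TIMs, and 0.926 to 1.37 in DBA2 BM IMs against 1.63 to 3.04 in LN4K1 lung TIMs, so that only the lymph node libraries overlapped their BM IMs.

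Lymph node and primary tumor TIMs of the same model were compared over the same 7 genes. The labels do not say which of these libraries came from the same mouse, and the test treated them as unpaired. Cyp51 alone was called, higher in lymph nodes by 0.39 ± 0.12 (adjusted p = 0.0497), against a background of 11.7% of 13488 genes called. That value passed in 2 of the 10 fits without a library (those without lymph node TIM replicate 3 or 5), ranged from 0.31 to 0.44 over the 10, and did not pass in the fits with DESeq2 size factors, without the filter or with all 5 groups (adjusted p = 0.0751, 0.0505 and 0.127). Fdps at 0.48 ± 0.17 (adjusted p = 0.106) and Idi1 at 0.32 ± 0.14 (adjusted p = 0.16) had intervals above 0 but did not pass, and Fdps was called without lymph node TIM replicate 5 (0.57, adjusted p = 0.0461). For Sqle (0.18, interval -0.21 to 0.57), Fdft1 (0.03, -0.52 to 0.58) and Lss (-0.29, -0.64 to 0.06) the intervals held 0, and Hmgcs1 was at -0.24 ± 0.12 (adjusted p = 0.246). For Cyp51 alone the groups did not overlap, as for 14.4% of all genes.

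Between BM IMs of the strains, 0 of the 7 were called by edgeR, where 21.1% of 12905 genes were. At an unadjusted p under 0.05 there was 1, Sqle, at 15.0, 19.7 and 16.0 CPM against 10.0, 13.7 and 9.51 CPM, higher in DBA2 by 0.64 ± 0.20 (adjusted p = 0.0506), and DESeq2 called it (0.63, adjusted p = 0.0188). Its libraries did not overlap between strains, as for 42.0% of genes. Without FVB BM IM replicate 3, Hmgcs1 (0.66, adjusted p = 0.0165) and Fdps (-0.39, adjusted p = 0.035) were called in place of none.

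Whether the change from BM to tumor differed between the models was tested as an interaction over the 4 groups of marrow and lung, the lymph nodes left out. Sqle was called, with a rise larger by 0.86 ± 0.28 in LN2E1 primary tumors (adjusted p = 0.0357), where 26.5% of 15182 genes were called. It passed in 8 of 16 fits without a library (adjusted p from 0.0126 to 0.116), being lost without FVB BM IM replicate 1 or 3, DBA2 BM IM replicate 2 or 3, LN4K1 lung TIM replicate 2 or primary tumor TIM replicate 2, 4 or 5, and it passed neither without the filter (0.80, adjusted p = 0.0533) nor with all 5 groups (0.80, adjusted p = 0.0855). Lss had the larger estimate, 1.19 ± 0.46, and missed the threshold (adjusted p = 0.0656), whereas DESeq2 called it (1.23, adjusted p = 0.0312), as did edgeR without DBA2 BM IM replicate 1 (1.52, adjusted p = 0.0153) or LN4K1 lung TIM replicate 2 (1.34, adjusted p = 0.0412). Cyp51 (0.19, interval -0.38 to 0.76), Hmgcs1 (0.11, -0.36 to 0.58) and Fdft1 (0.10, -0.51 to 0.71) gave intervals on both sides of 0, as did Idi1 (-0.35, -0.98 to 0.28) and Fdps (-0.45, -1.0 to 0.10). Fdps was called without LN4K1 lung TIM replicate 2 (-0.59, adjusted p = 0.0484).

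A list of 12 other enzymes of the route went both ways. In primary tumors 3 of the 12 rose and 5 fell, in lymph node metastases 2 rose and 2 fell, and in LN4K1 lungs 3 rose and 2 fell. The shares called were thus 66.7%, 33.3% and 41.7%, where 61.9%, 37.4% and 24.9% of all genes tested were called, and the median log2 fold changes were -0.23, -0.28 and 0.04. Sc4mol (Msmo1, the sterol-C4-methyl oxidase that acts soon after Cyp51) rose by 1.13, 1.64 and 1.62, and phosphomevalonate kinase Pmvk by 0.93, 1.44 and 0.88, in the order primary tumor, lymph node, LN4K1 lung.

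**Figure D2:**
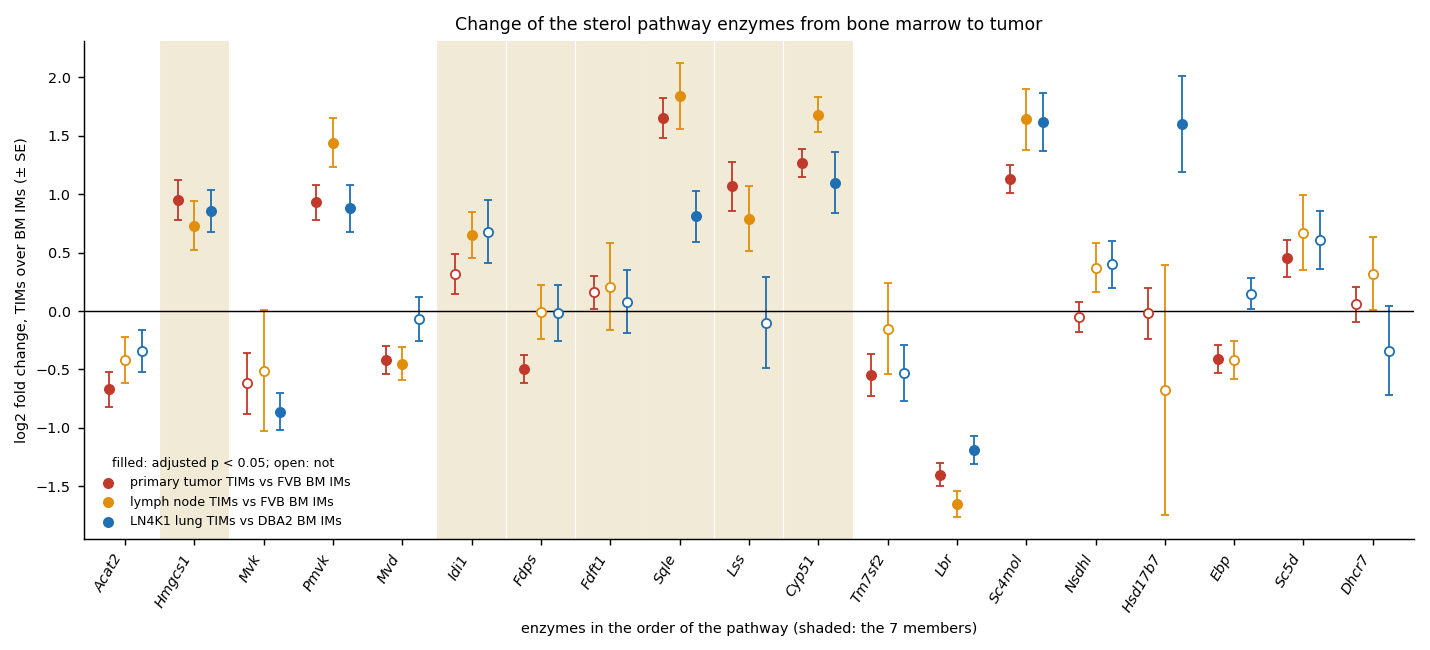
Log2 fold change of TIMs over BM IMs of the same strain (vertical axis, ± SE) for the 7 members and the 12 other enzymes in the order of the route (horizontal axis), with the members shaded, filled points for an adjusted p under 0.05 and open points for the rest. Hmgcs1, Pmvk, Sqle, Cyp51 and Sc4mol are filled above 0 in all 3 comparisons and Lbr is filled below 0 in all 3, while Fdps and Fdft1 lie between -0.50 and 0.21.

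The other enzymes behind these counts are named here, some after their values had been seen. Sc5d, a sterol desaturase late in the route, rose by 0.45 in primary tumors (adjusted p = 0.0357). Among the enzymes that fell, Lbr, a nuclear envelope protein with sterol C14-reductase activity, dropped by 1.40, 1.65 and 1.19 in the 3 comparisons (adjusted p = 3.27e-06, 3.44e-06 and 8.77e-05). Its levels were 689 to 877 CPM in FVB BM IMs and 227 to 261 CPM in lymph node TIMs. Acetyl-CoA acetyltransferase Acat2 fell by 0.67 in primary tumors, where mevalonate decarboxylase Mvd (-0.42), Tm7sf2 (-0.55) and Ebp (-0.41) were also called lower, Mvd fell by 0.45 in lymph node metastases (adjusted p = 0.0294), and mevalonate kinase Mvk fell by 0.86 in LN4K1 lungs (adjusted p = 0.00403). Hsd17b7 rose by 1.6 in LN4K1 lungs (adjusted p = 0.0195), where its DBA2 BM IMs were lower than FVB BM IMs by 2.02 on the log2 scale. Between the strains' BM IMs 1 of the 12 was higher in DBA2 (Mvk at 0.58) and 3 were lower (Hsd17b7, Dhcr7 at -1.34, Acat2 at -0.47). That was 33.3% of the 12, where 21.1% of 12905 genes were called. Lymph node TIMs exceeded primary tumor TIMs in Pmvk (0.49, adjusted p = 0.0233) and were lower in Lbr (-0.26, adjusted p = 0.0452). That was 16.7% of the 12, where 11.7% of 13488 genes were called. Several of these calls rested on single libraries: when each was left out in turn, the call was made in 3 of 8 fits for Sc5d, 4 of 8 for Tm7sf2 and 6 of 8 for Ebp in primary tumors, 6 of 8 for Hsd17b7 in LN4K1 lungs, 7 of 10 for Pmvk and 3 of 10 for Lbr between the LN2E1 tissues, and 0 of 6 for Mvk and 1 of 6 for Acat2 between the BM IMs. For Mvd it was made in 7 of 8 fits in primary tumors and 3 of 8 in lymph node metastases.

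Among genes that sense sterols and regulate the route, the interaction test called 4 of 10 (40% against 26.5% of all genes). It was positive for 3 of them and negative for Tmem97 (-0.95, adjusted p = 0.0165), which had -1.42 in primary tumors and -0.45 in LN4K1 lungs. Of the 10 tested regulators, 5 rose and 1 fell in primary tumors, 5 rose and 1 fell in lymph node metastases, and 1 rose in LN4K1 lungs, which is 60%, 60% and 10% of the 10 against 61.9%, 37.4% and 24.9% of all genes. Srebf2, which encodes SREBP-2, stood at 26.9, 28.0 and 44.3 CPM in the FVB marrow and 93.8 to 111 CPM in primary tumors, a rise by 1.63 (adjusted p = 4.44e-05), and by 1.67 (adjusted p = 0.00122) in lymph node metastases. In the DBA2 strain it had 49.9 to 59.5 CPM in BM IMs and 36.8 to 81.8 CPM in LN4K1 lung TIMs (0.04, adjusted p = 0.919). The difference between models was 1.61 (adjusted p = 0.00197).

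**Figure D3:**
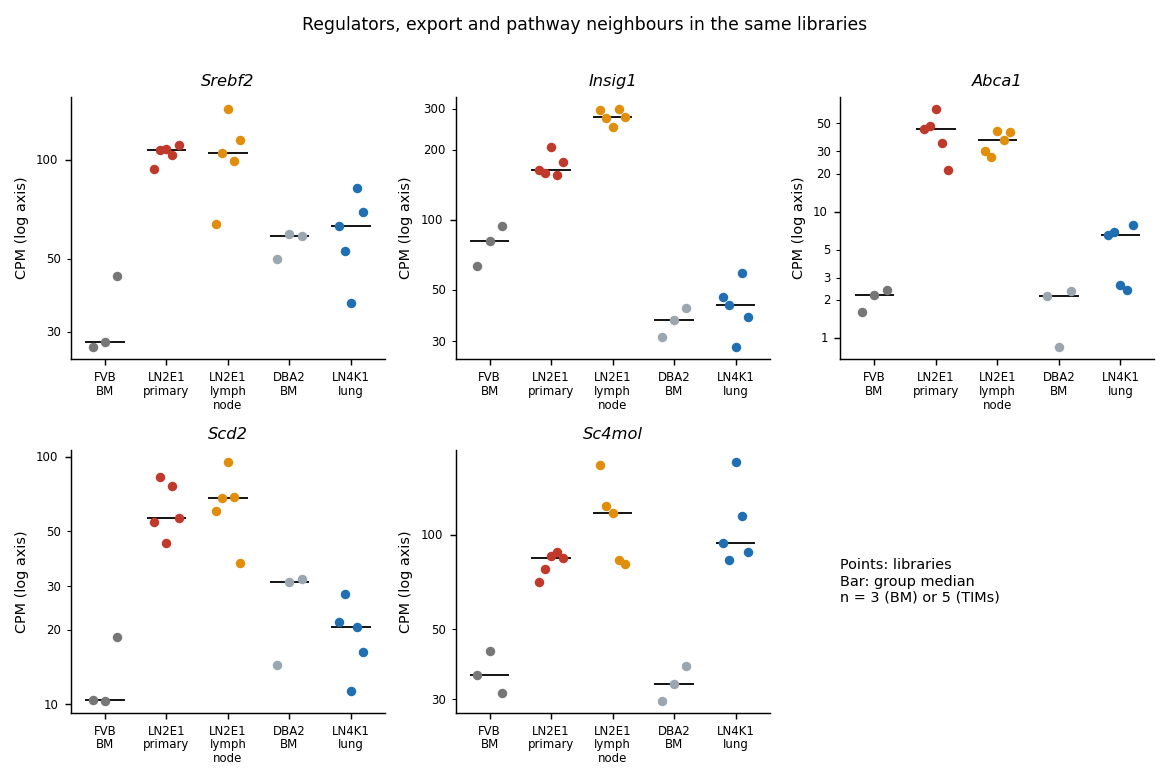
CPM (vertical axis, logarithmic) of Srebf2, Insig1, Abca1, Scd2 and Sc4mol in each library of the 5 groups (horizontal axis), with points for libraries and bars for group medians. Sc4mol separates TIMs from BM IMs in both strains, whereas Srebf2 and Scd2 do so in the FVB strain only.

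Insig1, which retains the SREBP complex when sterols are high and is itself an SREBP target, ranged over 63.4 to 93.5 CPM in the FVB marrow, 156 to 205 CPM in primary tumors and 250 to 300 CPM in lymph node TIMs. It rose by 1.10 (adjusted p = 0.000193) and 1.82 (adjusted p = 1.43e-05), differed between lymph node and primary tumor TIMs by 0.71 (adjusted p = 0.00115), and stayed at 28.2 to 59.1 CPM in LN4K1 lung TIMs against 31.3 to 41.5 CPM in DBA2 BM IMs (0.16, adjusted p = 0.667). Scap, the escort of SREBP, rose in the LN2E1 tissues (1.53 and 1.61) and Insig2 by 0.44, 0.71 and 0.44 in all 3. With each library left out in turn, Insig2 was called in 5 of 8 fits in lymph node metastases and 2 of 8 in LN4K1 lungs. Tmem97, a sterol-responsive membrane protein, fell by 1.42 and 1.66 in the LN2E1 tissues (adjusted p = 1.25e-05 and 0.000274).

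A list of genes for sterol export, storage and oxysterols, several of them under LXR control, was counted in the same way. Of 12, 8 rose and 1 fell in primary tumors, 7 rose and 1 fell in lymph node metastases, and 2 rose and 1 fell in LN4K1 lungs. These were 75%, 66.7% and 25% of the list against 61.9%, 37.4% and 24.9% of all genes, with medians of 0.73, 0.68 and 0.20. The cholesterol exporter Abca1 stood at 1.59, 2.17 and 2.40 CPM in the FVB marrow and 21.5 to 65.4 CPM in primary tumors, a rise by 4.36 (adjusted p = 1.29e-05), and by 4.13 (adjusted p = 3.49e-06) in lymph node metastases. In LN4K1 lungs it had 2.38 to 7.76 CPM (1.48, adjusted p = 0.0699), and the interaction was 2.90 (adjusted p = 0.00426). Nr1h3, which encodes LXR-alpha, rose in all 3 by 2.68, 3.08 and 2.16, and Apoe by 1.02, 1.06 and 1.97. Ch25h, the 25-hydroxylase of cholesterol, had at most 0.148 CPM in the FVB marrow against 3.47 to 6.77 CPM in primary tumor TIMs and 1.08 to 7.97 CPM in lymph node TIMs, and a fitted fold from so few BM counts depends on the prior count.

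Branches around the route were counted in the same way. Of 7 genes for prenyl, dolichol and ubiquinone synthesis, 1 rose and 3 fell in primary tumors, 1 fell in lymph node metastases and 0 were called in LN4K1 lungs, where 61.9%, 37.4% and 24.9% of all genes were called. Pdss1, of ubiquinone synthesis, fell by 1.56 and 1.06 in the LN2E1 tissues, and farnesyltransferase subunit Fnta by 0.61 in primary tumors. The lymph node call of Pdss1 was made in 3 of 8 fits that left out a library. Of 12 fatty acid synthesis genes 10 rose and 2 fell in primary tumors, 6 of 11 tested rose in lymph node metastases, and 1 rose and 2 fell in LN4K1 lungs, that is 100%, 54.5% and 25% of those tested. The desaturase Scd2 rose in the LN2E1 tissues (2.24 and 2.32) and had a value of -0.49 (adjusted p = 0.328) in LN4K1 lungs, with an interaction of 2.74 (adjusted p = 0.00107). Fads1, another desaturase, rose by 0.83 in primary tumors and fell by 1.45 in LN4K1 lungs, with an interaction of 2.30 (adjusted p = 0.000178).

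Other marks of the cells changed with the same contrast. All 16 proliferation genes of a list fell in each of the 3 comparisons, where 28.6%, 17.2% and 11% of all genes were called lower. Their summed levels were 3001 to 3454 CPM in BM IMs and 160 to 358 CPM in TIMs. Mki67 was at 183 to 255 CPM in BM IMs against 4.66 to 12.9 CPM in TIMs. A list of monocyte genes (6 of 6 in the table), which holds the sort markers Ptprc, Itgam and Ly6c2 beside Ccr2, Csf1r and Fcgr1, summed to 5290 to 6464 CPM in BM IMs and 7111 to 10175 CPM in TIMs. Ly6c2, of the Ly6C antigen, went the other way, from 2434 to 3600 CPM in BM IMs to 974 to 1688 CPM in TIMs with no overlap. The 7 neutrophil precursor markers summed to 2811 to 4955 CPM in BM IMs and 15.0 to 494 CPM in TIMs. In the same order, macrophage markers summed to 179 to 242 and 244 to 456 CPM, and dendritic cell markers to 78.3 to 108 and 84.0 to 604 CPM. Mature neutrophil markers (6 of 7 in the table) differed in direction between the strains. Their sum was higher in LN4K1 lungs (1373 to 2073 CPM) than in the DBA2 marrow (1005 to 1320 CPM). Against 2001 to 2483 CPM in the FVB marrow, lymph nodes had 650 to 1116 CPM and primary tumors 1100 to 2023 CPM. The genes of this list also parted: in LN4K1 lungs S100a9 was below the DBA2 marrow (26.9 to 152 against 197 to 286 CPM). Mmp8 was above it (707 to 1021 against 201 to 256 CPM). In LN4K1 lungs Emr1 was at 187 to 341 CPM against 145 to 167 CPM in DBA2 BM IMs. C1qc was mostly lower there, at 4.31 to 9.07 against 9.04 to 15.1 CPM. Siglech had at most 1.31 CPM in BM IMs and 4.34 to 477 CPM in TIMs. Cd209a was at 40.4 to 71.9 CPM in primary tumor TIMs against 67.9 to 77.8 CPM in FVB BM IMs. In the lymph node and LN4K1 lung groups Cd209a lay on both sides of the BM IM range of the strain. Alveolar macrophage markers summed to 762 to 3689 and 2302 to 9355 CPM, a sum made up almost wholly of Chi3l3 (724 to 3571 and 2255 to 9330 CPM), while Ear2 was lower in TIMs (8.93 to 26.6 CPM) than in BM IMs (28.2 to 108 CPM). Lung epithelium markers summed to 137 to 877 CPM in primary tumor TIMs and 7.32 to 102 CPM in LN4K1 lung TIMs against at most 2.60 CPM in BM IMs, and fibroblast markers to 361 to 1101 CPM in primary tumor TIMs, 0.836 to 87.1 CPM in lymph node TIMs and at most 42.9 CPM in LN4K1 lung TIMs. In lymph node TIMs all 5 lung epithelium markers were under 1 CPM in every library. Endothelial markers summed to 5.86 to 20.4 CPM in BM IMs, 52.4 to 110 CPM in LN2E1 TIMs and 6.97 to 16.1 CPM in LN4K1 lung TIMs. The LN2E1 sum was mostly Pecam1 (40.4 to 97.4 CPM, against 3.84 to 5.81 CPM in the FVB marrow). Kdr and Cdh5 reached at most 13.6 and 4.54 CPM in LN2E1 TIMs, against at most 0.322 and 0.0815 CPM in the FVB marrow. Tie1 was lower in primary tumors (0.776 to 1.27 CPM) than in the FVB marrow (1.66 to 1.99 CPM). In lymph node TIMs Tie1 was lower too, except in replicate 2. B cell, T cell, NK cell, squamous and red blood cell markers summed to at most 59.2 CPM in any library. The part of these markers in the levels of the members was not tested.

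Across the 21 libraries the members varied together to unequal degrees. The 21 pairs among the 7 had Pearson correlations of log2 CPM from -0.22 to 0.84 (median 0.39), with 17 positive, a description of libraries that share groups and were prepared alike. Sqle with Cyp51 (0.84) and Idi1 with Cyp51 (0.81) were highest, and Hmgcs1 with Fdps (-0.22) lowest. After the group means were removed, the median was 0.44, Idi1 with Cyp51 stood at 0.84 and Fdps with Fdft1 at 0.70, and Lss was between -0.14 and 0.05 with each of the others. The heat map of the members by library shows this: LN4K1 lung TIM replicate 3 was highest of its group for Idi1, Fdps and Fdft1 and lowest for Lss. Lymph node TIM replicate 1 was highest of its group for Fdps (45.9 CPM) and Fdft1 (25.4 CPM). The correlations were not computed without these libraries.

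**Figure D4:**
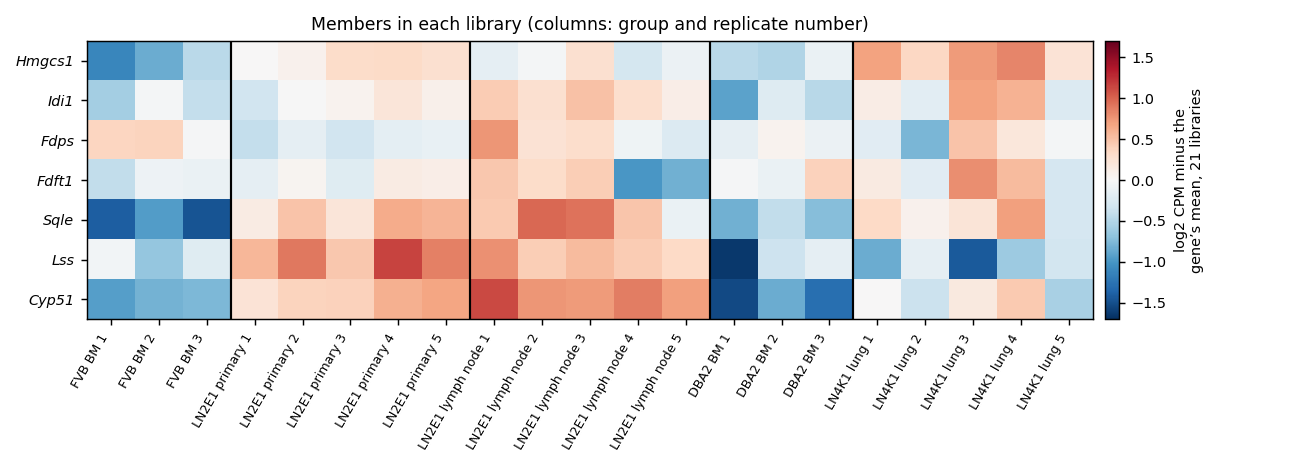
Log2 CPM of each member minus its mean over the 21 libraries (color, red above and blue below) for 7 genes (rows) and the libraries of the 5 groups (columns, separated by lines). Cyp51 and Sqle are blue in all BM IM libraries and red in LN2E1 TIMs, except for Sqle in lymph node TIM replicate 5, and Lss is blue in all LN4K1 lung libraries.

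Of 8010 genes whose log2 CPM averaged over 3, those most like the mean centred log2 CPM of the 7 over 21 libraries were Tcf4 (r = 0.90), Gm5547, Ddx3x, Stx12 and Sc4mol (each 0.89). Within groups, that is after group means were removed, Sc4mol came first (0.77), followed by Fgfr1op2 (0.76), Cd209a and Gnb4 (0.74 each) and Seh1l (0.71). Srebf2 had 0.68 over all libraries and 0.02 within groups, and Abca1 had 0.68 and -0.61. Lymph node TIM replicate 1 and LN4K1 lung TIM replicate 3, the libraries least like their groups, were the highest of their groups for Sc4mol (167 and 170 CPM). The same libraries were highest for Cd209a (79.3 and 306 CPM). The within-group values were not computed without them.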

How the data were processed

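RNA-Seq read counts per gene of 21 libraries were analysed in the 5 groups of the labels. The deposited values are raw counts, which the authors made from SMARTer and Nextera XT libraries, which carry no strand, with BBDuk, BBMap, samtools (v. 1.8) and featureCounts (v. 1.5.2). The featureCounts settings and annotation are not given in the sources used here. Genes were filtered with filterByExpr (minimum count 10, minimum total 15), scaled with TMM factors and tested with edgeR (v. 4.0.16, robust quasi-likelihood test, R v. 4.3.3) on the libraries of each comparison, with Benjamini-Hochberg adjustment over all genes tested. The cutoffs for a DEG were taken from the study's methods, which set them on shrunken DESeq2 fold changes, and were applied here to unshrunken edgeR estimates. The interaction was a contrast over 4 groups, standard errors were derived from the F statistic, and 95% intervals from the standard error with a normal quantile. With so few libraries these intervals are narrower than the quasi-likelihood test implies. DESeq2 (v. 1.42.0), other size factors, no filter, all 5 groups in 1 fit, a replicate block and leaving out each library were the alternatives, and the edgeR and DESeq2 steps were tested on simulated counts with 200 changed genes. Counting error at these depths was small beside the spread between libraries. CPM per kb used exon unions of the GENCODE annotation of GRCm38, log2 CPM a prior count of 2, and near-identical transcripts were found with blastn (at least 95% identity over 200 bases). The members and lists were chosen with earlier results of these data known. All 7 members were named, and from each list a fixed set of genes plus at most 3 per comparison with the largest change among those called. Some genes of the lists are not reported here.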

Additional observations from a re-analysis of the deposited data

Results flagged for a closer look

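In groups of 5 libraries, a lowest or highest library far from the others was found in 9 of 96 gene and group sets. Chance gives about 1 in 20 for independent sets. These sets share libraries, and several flags fell on the same library, so the count cannot be set against that share. None of the sets of the 7 members was flagged. Mvd was at 32.2 CPM in LN4K1 lung TIM replicate 3, against 53.7 to 58.3 CPM in the other 4 libraries, and that library was also the highest of its group for Idi1, Fdps and Fdft1. Lymph node TIM replicate 1 was lowest for Hsd17b7 (0.0121 CPM against 2.66 to 10.4), Mvk (1.11 against 5.84 to 8.08) and Nr1h3 (20.8 against 34.8 to 41.9). Primary tumor TIM replicate 3 was lowest for Dhcr7 (18.6 CPM against 27.3 to 29.4) and Tmem97 (10 against 11.6 to 12.2). The others were Nr1h3, highest in primary tumor TIM replicate 1 (38.3 CPM against 22.1 to 25.4), Pdss1, lowest in lymph node TIM replicate 2 (3.02 against 7.22 to 10), and Scap, highest in lymph node TIM replicate 3 (68.9 against 30.2 to 31.3).

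The change from BM to tumor differed between the LN2E1 primary tumor and the LN4K1 lung model for 11 of 32 tested genes of the text at an adjusted p under 0.05. Of all genes tested, 26.5% of 15182 were called. The 32 were named in part for large called changes, in this interaction among others, so their count cannot be set against that share. The member among the 11 was Sqle, with a value in LN2E1 minus LN4K1 of 0.86 on the log2 scale. That value was also positive for Insig1 (0.96), Srebf2 (1.61), Scap (1.61), Abca1 (2.90), Scd2 (2.74) and Fads1 (2.30). It was negative for Ebp (-0.54), Tmem97 (-0.95) and Pdss1 (-1.05), which fell in LN2E1 primary tumors and were not called in LN4K1 lungs, and for Hsd17b7 (-1.59), which rose in LN4K1 lungs and was not called in LN2E1 primary tumors. In DBA2 BM IMs Srebf2 was higher and Insig1 and Hsd17b7 lower than in FVB BM IMs, by the edgeR test of the marrow groups alone. The Srebf2 call was made in 1 of 6 fits that left out a library, and those of Insig1 and Hsd17b7 in 6 of 6. Strain, line, route and tissue cannot be told apart in the values between the models.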

How the results depend on the processing

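The labels do not say whether numbers shared by libraries of different groups mark pairs. The deviations of same-numbered libraries correlated between -0.52 and 0.422, over all pairs of groups and also across strains, and only some pairs passed 0.1. These values were not set beside pairs with different numbers and do not decide the question. With the replicate number as a block, 5 members were again called in primary tumors, but 3 in lymph node metastases (without Idi1 and Lss), 1 in LN4K1 lungs (Hmgcs1), 0 between lymph node and primary tumor TIMs and 1 between the BM IMs (Sqle). Under that block, DEGs among the members were 0 in primary tumors and 0 in lymph node metastases, and the other pathway enzymes called were 4 in primary tumors, 3 in LN4K1 lungs, 0 between lymph node and primary tumor TIMs, 2 between the BM IMs and 1 in the interaction. With DESeq2, 4 members were DEGs in primary tumors and 2 in lymph node metastases, 1 was called between the BM IMs and 2 in the interaction. With all 5 groups in 1 fit, 2 members were DEGs in lymph node metastases, 0 were called between lymph node and primary tumor TIMs and 0 in the interaction, and the other enzymes called were 3 in LN4K1 lungs, 1 between the BM IMs and 1 in the interaction. Without the filter, 0 members were called between lymph node and primary tumor TIMs and 0 in the interaction, and the other enzymes called were 1 and, between the BM IMs, 2. With DESeq2 size factors in edgeR, 0 members were called between lymph node and primary tumor TIMs. The causes of these changes were not tested.

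When each library was left out in turn, members called were 5 to 6 in primary tumors, 2 to 5 in lymph node metastases, 1 to 3 in LN4K1 lungs, 0 to 2 between lymph node and primary tumor TIMs, 0 to 2 between the BM IMs and 0 to 2 in the interaction. DEGs among them were 0 to 2 in primary tumors, 0 to 1 in lymph node metastases and 0 in the others, and the other enzymes called were 4 to 8, 3 to 5, 4 to 6, 0 to 3, 2 to 5 and 1 to 3, in the same order.

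Fold changes that turned sign lay between -0.55 and 0.34 in the alternative fits given here, apart from Ch25h. Under the block these were Fdps in lymph node metastases (0.20), Srebf2 in LN4K1 lungs (-0.24), Fdft1 (-0.09), Srebf2 (-0.02) and Mki67 (-0.01) between lymph node and primary tumor TIMs, and Mki67 in the interaction (0.00). With all 5 groups, Fdps in LN4K1 lungs was at 0.04, and with DESeq2 or its size factors Srebf2 between lymph node and primary tumor TIMs was at -0.01 and Mki67 in the interaction at 0.03. Over the fits without a library, signs turned, with no call on either side of 0, for Fdps in lymph node metastases (-0.17 to 0.09) and LN4K1 lungs (-0.17 to 0.13), for Fdft1 in LN4K1 lungs (-0.08 to 0.25) and between the LN2E1 tissues (-0.11 to 0.20), for Lss in LN4K1 lungs (-0.44 to 0.17) and between the BM IMs (-0.55 to 0.06), and in the interaction for Hmgcs1 (-0.09 to 0.33), Fdft1 (-0.07 to 0.26) and Cyp51 (-0.01 to 0.34). The same held for Mvd (-0.12 to 0.06) and Srebf2 (-0.09 to 0.18) in LN4K1 lungs, Mvd (-0.11 to 0.03), Srebf2 (-0.13 to 0.16), Scd2 (-0.11 to 0.22) and Mki67 (-0.17 to 0.18) between the LN2E1 tissues, Abca1 between the BM IMs (-0.43 to 0.15), and Ch25h (-1.90 to 7.01) and Mki67 (-0.13 to 0.09) in the interaction.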
